A study of Arabidopsis thaliana with 6 samples.

Results

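The data are reads counted past the ends of 10 genes for the writers and erasers of N6-methyladenosine (m6A) in Arabidopsis thaliana seedlings. The 10 genes were chosen by identity, as 6 writer genes (MTA, AT4G10760; MTB, AT4G09980; FIP37, AT3G54170; VIR, AT3G05680; HAKAI, AT5G01160; FIO1, AT2G21070) and 4 eraser or eraser-like genes (ALKBH9A, AT1G48980; ALKBH9B, AT2G17970; ALKBH9C, AT4G36090; ALKBH10B, AT4G02940), out of 31109 genes in the deposited tables. They own 21 of the 39087 deposited transcript rows. Every row holds the reads in a window of 500 bases past a transcript's annotated 3′ end, so a value belongs to the window that carries a gene's name and is not that gene's expression. The seedlings were of the Col-0 ecotype, 9 days old, and either wild type (WT), nerd-1 or cpsf30-1, with 2 libraries per genotype and no agent or further allele named in the labels. The labels do not say whether the 2 libraries of a genotype came from separate plants, so p-values measure the spread between these libraries, which may be technical. Whole seedlings were used, in which fewer cells of a type and less RNA per cell cannot be told apart.

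m6A is the most common internal mark on plant mRNA and lies mostly near stop codons and in 3′ untranslated regions. MTA and MTB form the methyltransferase pair, FIP37, VIR and HAKAI are further parts of the same complex, and FIO1 is a separate methyltransferase of the METTL16 type that marks the U6 spliceosomal RNA. ALKBH9B and ALKBH10B are demethylases, and ALKBH9A and ALKBH9C are their close relatives. Proteins with a YTH domain read the mark, and CPSF30 is of interest here because its longer protein carries such a domain fused to a subunit of the cleavage and polyadenylation machinery. NERD is needed for small-RNA-directed chromatin silencing at some loci.

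The windows of 5 of the 10 genes run across a short intergenic gap into the next gene on the same strand. The gaps are shown because they are all that separates the annotated end of the m6A gene from the exon on which most of its window lies. They are from the RefSeq TAIR10.1 assembly, 5′ to 3′ on the strand of the m6A gene, in lower case throughout because the canonical polyadenylation hexamer, searched as AATAAA, occurs in none of them.
FIO1, chr2:9043652-9043698, plus strand, before AT2G21080: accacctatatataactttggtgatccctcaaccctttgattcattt
FIP37, chr3:20059584-20059670, plus strand, before CDKB1;1: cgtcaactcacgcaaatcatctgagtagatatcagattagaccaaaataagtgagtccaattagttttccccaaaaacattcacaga
VIR, chr3:1660430-1660522, minus strand, before AT3G05675: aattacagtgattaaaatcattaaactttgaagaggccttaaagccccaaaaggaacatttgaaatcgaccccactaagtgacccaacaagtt
ALKBH9C, chr4:17078040-17078113, minus strand, before AT4G36080: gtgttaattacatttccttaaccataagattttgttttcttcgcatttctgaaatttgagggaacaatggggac
ALKBH10B, chr4:1311039-1311197, plus strand, before AT4G02950: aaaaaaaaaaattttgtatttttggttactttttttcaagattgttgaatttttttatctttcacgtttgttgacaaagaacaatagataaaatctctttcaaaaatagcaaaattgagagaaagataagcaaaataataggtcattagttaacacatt

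The gaps measured 47 bases past FIO1, 74 past ALKBH9C, 87 past FIP37, 93 past VIR and 159 past ALKBH10B. AATAAA was also absent, on the transcript strand, from the whole 500-base window of all 10 genes, whereas 45.0% of 30618 windows placed on the reference held it. On the other strand 1 of the 10 windows held it, that of HAKAI, against 45.0% of all windows. In the last 30 bases before the annotated end it occurred in 0 of the 10 genes and in 5.92% of all placed transcripts. These are matches of letters and say nothing of where the transcripts were cleaved.

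The 10 windows fell into 3 kinds of neighbourhood. Those of FIO1, FIP37, VIR, ALKBH9C and ALKBH10B lay mostly on exons of the next gene on the same strand, with 453, 413, 407, 426 and 341 of their 500 bases there. Those of MTA and MTB lay on the exons of a convergent gene, by 500 and 420 bases, and the MTA window also held 356 bases of a long non-coding RNA, AT4G05815, on its own strand. Those of HAKAI, ALKBH9A and ALKBH9B held no other annotated gene on either strand. A same-strand neighbour was thus present in 6 of 10 windows (60%), against 22.6% of all genes, and 3 of 10 (30%) were free of other genes, against 44.8%. The library kit was stranded, but the strand setting of the counting is not given in the sources used here. Reads of the m6A gene, of a same-strand neighbour and of a convergent gene therefore cannot be told apart in these windows. Over all genes, 7176 of 9651 windows with a neighbour on the other strand only held enough reads to be tested below. So did 4920 of 7040 with a same-strand neighbour and 1932 of 13927 free of other genes. Whether reads of the other strand were counted was not tested.

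**Figure D1:**
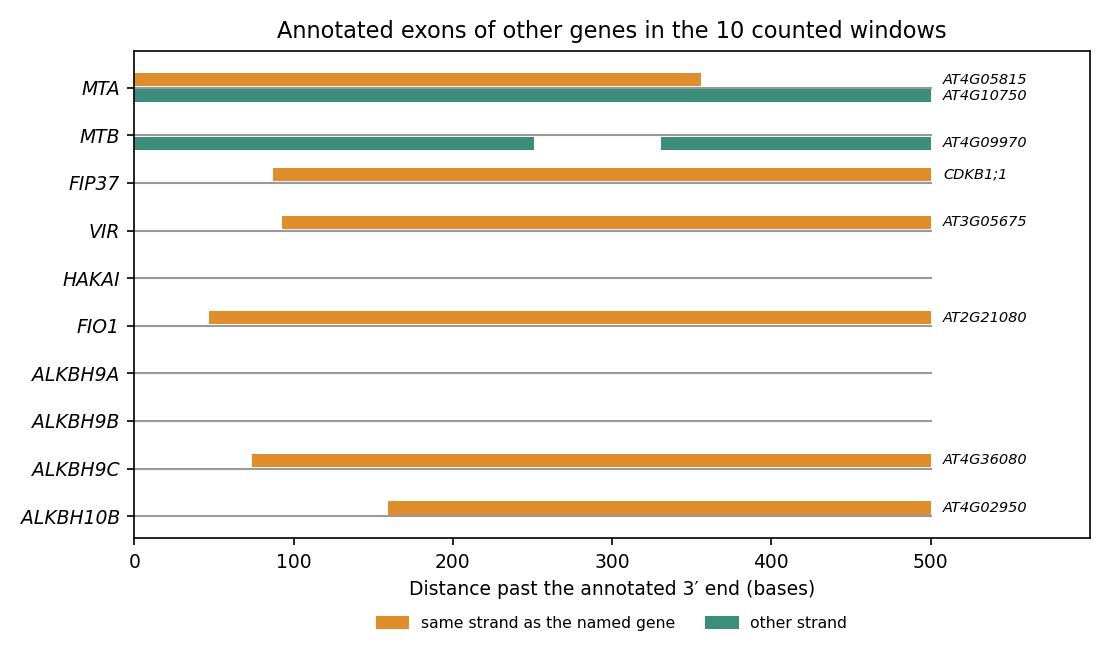
Each line is the 500-base window past the annotated 3′ end of a gene, plotted by distance in bases, with annotated exons of other genes on the same strand (upper bars) or the other strand (lower bars). The windows of 7 genes hold exons of another gene, and those of HAKAI, ALKBH9A and ALKBH9B hold none.

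Window levels ranged from none to a level above 92.0% of the windows of all genes. Counts per 1000000 reads (CPM, scaled by TMM, a trimmed-mean factor per library) averaged over the 6 libraries were 53.4 for MTA, 29.8 for FIO1, 27.2 for MTB, 12.1 for FIP37, 4.13 for VIR, 3.36 for ALKBH9C, 0.748 for ALKBH10B and 0.686 for HAKAI. Every window has the same length, so these levels can be set side by side as window levels, but not as gene levels. The 3 lowest windows, of HAKAI, ALKBH9A and ALKBH9B, are those free of other genes, and all above them hold another gene's exons. The MTA window was the one above 92.0% of the windows of all genes, and that of HAKAI, the lowest with reads, was above 53.7%. In this order the libraries of MTB and FIP37 did not overlap, nor did those of FIP37 and VIR, while each other pair of neighbours with reads overlapped in their ranges over libraries.

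**Figure D2:**
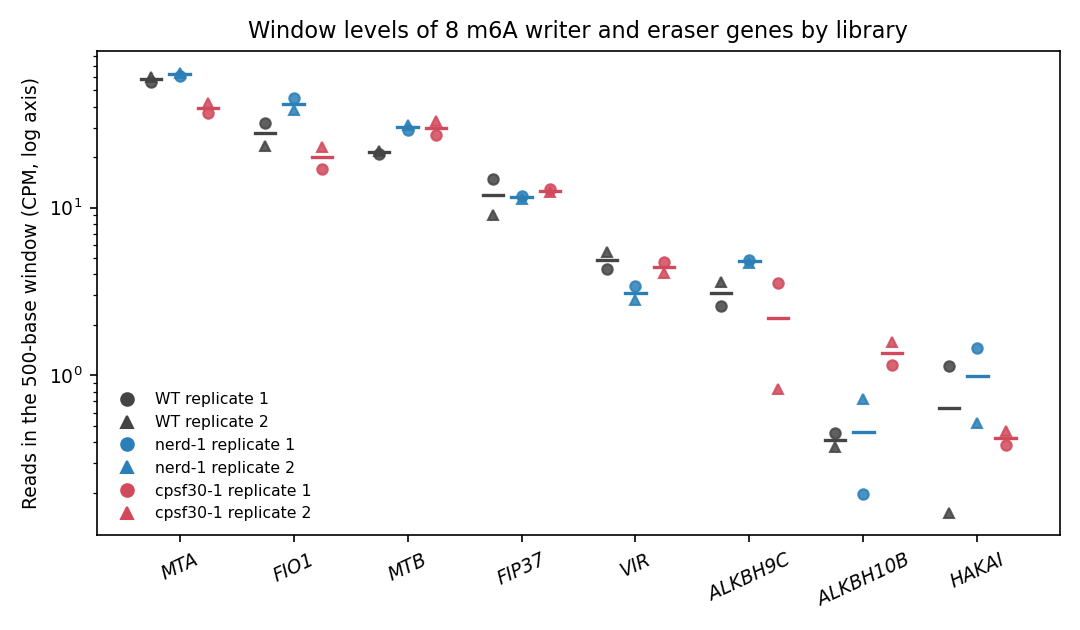
CPM on a log axis in each of the 6 libraries for the 8 genes with reads, ordered by mean level, with circles for replicate 1, triangles for replicate 2 and bars for the mean of each genotype. Both cpsf30-1 libraries lie below the other 4 for MTA and FIO1 and above them for ALKBH10B.

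Of the 2 mutated genes, only CPSF30 had a window with fewer reads in its own mutant. The window past its shorter transcript, chr1:10770686-10771185, lies by 373 bases on exons of the longer transcript and held 43 and 49 reads in WT, 66 and 58 in nerd-1, with 1 and 0 in cpsf30-1. That drop against WT passed the edgeR test of all deposited windows (Benjamini-Hochberg adjusted p = 0.00538). The window past the longer transcript held 4 and 2 reads in WT, 3 and 4 in nerd-1, with 4 and 16 in cpsf30-1. It held too few reads to be tested and lies by 463 bases on exons of AT1G30455 on the other strand. Past NERD 3 reads were found in cpsf30-1 replicate 1 and none elsewhere, and this leaves the nerd-1 lesion unchecked. Totals with 1 window per gene were 8703050 reads in WT replicate 1, 13740648 in WT replicate 2 and between these in the mutants, and read counts below are not scaled for this. A window without reads may still have had up to 3 counts, or 0.226 to 0.339 CPM depending on the library, and this limit covers counting error only.

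No m6A writer or eraser window passed the threshold of an adjusted p under 0.05 in any comparison with 1 window per gene. Of the 10 genes, 8 passed the filter on low counts and 2, ALKBH9A and ALKBH9B, did not. In cpsf30-1 against WT, 0 of the 8 were called, where 10.3% of the 14151 windows tested were, and 1 of the 8, MTA, had an unadjusted p under 0.05, as did 27.7% of all windows. In nerd-1 against WT, 0 of the 8 were called, against a background of 0.0424%, and none had an unadjusted p under 0.05, as did 9.82% of all windows. In cpsf30-1 against nerd-1, 0 of the 8 were called, against 10.6%, and 2 of the 8, MTA and FIO1, had an unadjusted p under 0.05, as did 28.8% of all windows. DESeq2 called 0, 0 and 2 members in the same comparisons, the last being MTA and FIO1, beside 14.2%, 1.37% and 14% of the windows to which it gave an adjusted p.

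The size of the differences can be set beside that of all tested windows. The median absolute log2 difference of the 8 windows was 0.48 in cpsf30-1 against WT, where it was 0.44 over all windows. It was 0.54 against 0.31 in nerd-1 against WT, and 0.86 against 0.47 in cpsf30-1 against nerd-1. In the last, the largest values were those of the tested windows with the fewest reads. They were 1.56 for ALKBH10B (SE 0.734), -1.21 for HAKAI (SE 0.993) and -1.12 for ALKBH9C (SE 0.615). The signed medians were -0.31, 0.33 and -0.34 in the 3 comparisons, and those of all windows were -0.01, -0.01 and 0.04. The groups did not overlap for 4, 5 and 7 of the 8 windows, beside 52%, 43.4% and 62.4% of all windows, which are far larger shares than the 10.3%, 0.0424% and 10.6% called. These comparisons share libraries and are not independent of each other.

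**Figure D3:**
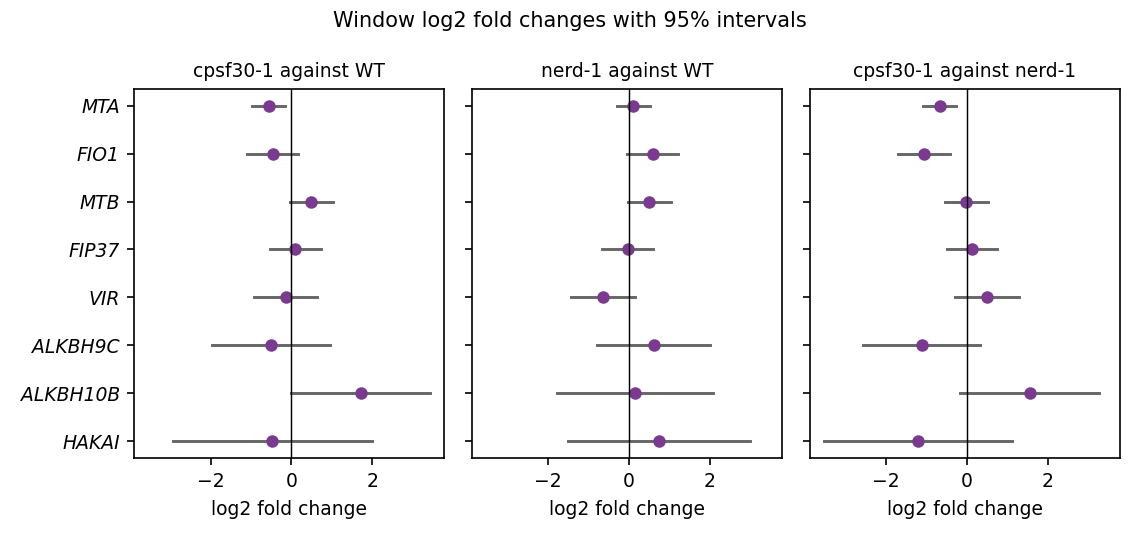
Points are edgeR log2 fold changes of the 8 tested windows and lines their 95% intervals, in 1 panel per comparison. The intervals of MTA exclude 0 in both comparisons with cpsf30-1 and that of FIO1 in cpsf30-1 against nerd-1, before adjustment over all windows.

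MTA is the catalytic subunit of the mRNA writer. Its window, chr4:6619317-6619816 on the minus strand, held 496 and 801 reads in WT, 629 and 613 in nerd-1, with 381 and 453 in cpsf30-1. On the CPM scale this was 58.2 ± 2.92 in WT, 62.6 ± 1.67 in nerd-1 and 39.4 ± 3.65 in cpsf30-1 (mean ± SD, n = 2 each). Both cpsf30-1 libraries were thus below all 4 others, and the WT and nerd-1 libraries stood close together. In cpsf30-1 against WT the log2 fold change was -0.56 (SE 0.175, 95% interval -0.97 to -0.15), with an adjusted p of 0.0872 by edgeR's quasi-likelihood test. Against nerd-1 it was -0.67 (SE 0.175), with an adjusted p of 0.0548, and nerd-1 against WT gave 0.10 (SE 0.174, adjusted p = 0.857). In the edgeR fit of all deposited windows the value against nerd-1 was -0.72 with an adjusted p of 0.0473, and it was called there, where 11.1% of 19294 windows were.

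The MTA window covers the exons of AT4G10750, a gene of the phosphoenolpyruvate carboxylase family that ends inside MTA on the other strand, and the reverse holds as well. The window named after AT4G10750 lies by 336 bases on MTA exons, so it may hold reads of the MTA gene body. It held 281 and 336 reads in WT, 381 and 363 in nerd-1, with 359 and 516 in cpsf30-1. Here WT was lowest, and the cpsf30-1 and nerd-1 libraries overlapped. In the fit of all windows its log2 fold change was 0.50 in cpsf30-1 against WT (SE 0.257, adjusted p = 0.252 by edgeR), 0.41 in nerd-1 against WT (adjusted p = 0.623) and 0.09 in cpsf30-1 against nerd-1 (adjusted p = 0.840).

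The 2 windows of this convergent pair were also compared within each library, a comparison added after the data were seen. The MTA window held 1.77 and 2.38 times the reads of the AT4G10750 window in WT, 1.65 and 1.69 times in nerd-1, with 1.06 and 0.878 times in cpsf30-1. The 3 genotypes did not overlap, and cpsf30-1 was lowest. Such lack of overlap was common over all 2710 pairs. It held for 49.7% in cpsf30-1 against WT, 43.2% in nerd-1 against WT and 59.3% in cpsf30-1 against nerd-1. By limma on the log2 ratios of 2710 convergent pairs, cpsf30-1 differed from WT by -1.09 (SE 0.257, adjusted p = 0.0816), where 4.35% of pairs were called. It differed from nerd-1 by -0.79 (adjusted p = 0.149, 2.36% of pairs called), and nerd-1 differed from WT by -0.30 (adjusted p = 0.725, 0.0369% of pairs called). None of the 3 values was called.

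MTB is the partner that binds MTA in the methyltransferase. Its farther window, chr4:6247235-6247734 on the minus strand, held 185 and 290 reads in WT, 298 and 301 in nerd-1, with 281 and 354 in cpsf30-1. The level was 21.4 ± 0.624 CPM in WT, 30.2 ± 1.57 in nerd-1 and 30.01 ± 3.997 in cpsf30-1 (n = 2 each). Both WT libraries were below all 4 mutant libraries, and the 2 mutants overlapped. Against WT the log2 fold change was 0.49 in cpsf30-1 (SE 0.224, adjusted p = 0.210) and 0.50 in nerd-1 (SE 0.225, adjusted p = 0.533), and between the mutants it was -0.01 (95% interval -0.53 to 0.52), all by edgeR. The window of the shorter MTB transcript, 40 bases nearer, held 156 and 250 reads in WT, 229 and 247 in nerd-1, with 247 and 287 in cpsf30-1.

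MTB faces AT4G09970, a gene of unknown function whose own window lies on MTB exons over all 500 bases. That window held 395 and 334 reads in WT, 554 and 494 in nerd-1, with 246 and 443 in cpsf30-1, highest in nerd-1 and overlapping between WT and cpsf30-1. It was not called in any comparison (edgeR fit of all windows, adjusted p = 0.612 for nerd-1 against WT). The ratio of the MTB window to it was 0.468 and 0.868 in WT, 0.538 and 0.609 in nerd-1, with 1.14 and 0.799 in cpsf30-1. The log2 ratio differed by 0.58 between cpsf30-1 and WT (SE 0.380, limma adjusted p = 0.417), and WT and cpsf30-1 overlapped. It differed by 0.74 between cpsf30-1 and nerd-1 (limma adjusted p = 0.302), without overlap, as did 59.3% of all pairs. Between nerd-1 and WT it differed by -0.16 (limma adjusted p = 0.898), with overlap.

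**Figure D4:**
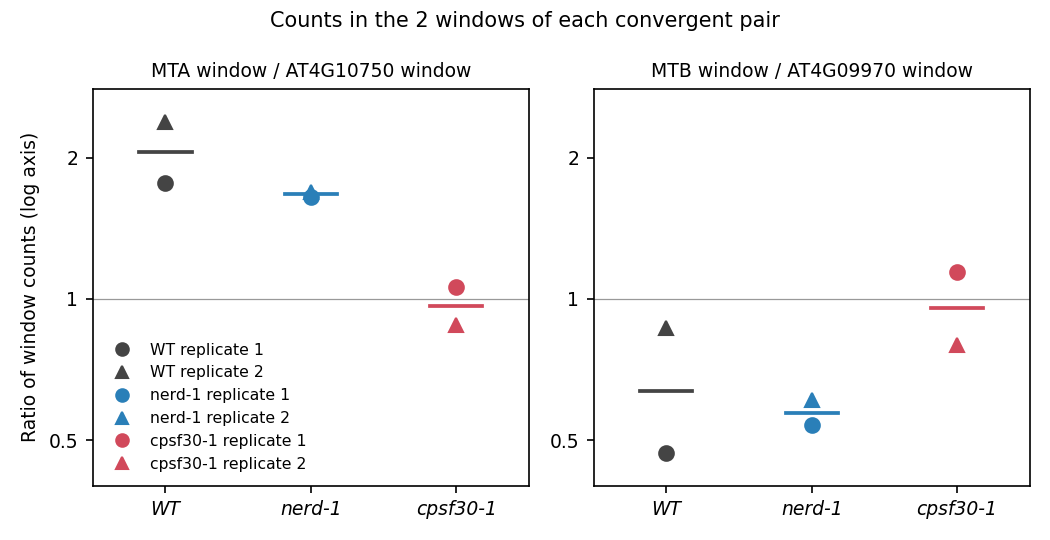
Reads in the MTA and MTB windows divided by reads in the window of the convergent gene, per library on a log axis, with bars for the geometric mean of each genotype. For MTA the cpsf30-1 ratios are 1.06 and 0.878 and the other 4 lie between 1.65 and 2.38, while for MTB the WT and cpsf30-1 ratios overlap.

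FIP37 is the plant relative of the animal subunit WTAP. Its window spans chr3:20059584-20060083 and held 131 and 120 reads in WT, 121 and 109 in nerd-1, with 134 and 133 in cpsf30-1. The 2 WT libraries, at 14.8 and 9.03 CPM, bracketed all 4 mutant libraries. The log2 fold changes against WT were 0.09 in cpsf30-1 (95% interval -0.53 to 0.72) and -0.03 in nerd-1 (-0.66 to 0.59). Most of this window lies on CDKB1;1, a cyclin-dependent kinase of the cell cycle. Another gene's window on the far end of CDKB1;1 (358 exon bases, from the other strand) held 78 and 112 reads in WT, 71 and 66 in nerd-1, with 118 and 87 in cpsf30-1. Scaled for depth over all deposited windows, both nerd-1 libraries were the lowest of the 6, and no comparison was called (edgeR adjusted p from 0.290 to 0.779). The window past CDKB1;1 itself held 942 and 1202 reads in WT, 1079 and 1059 in nerd-1, with 855 and 1136 in cpsf30-1. It was not called in any comparison either.

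VIR, the virilizer-type subunit of the writer, had a window of low level at chr3:1660023-1660522. It held 38 and 72 reads in WT, 35 and 27 in nerd-1, with 49 and 44 in cpsf30-1. Both nerd-1 libraries, at 3.42 and 2.81 CPM, were below the other 4, which ran from 4.08 to 5.42. In nerd-1 against WT it differed by a log2 fold change of -0.64 (SE 0.338, edgeR adjusted p = 0.570), and in cpsf30-1 against WT it was -0.14 (SE 0.330, adjusted p = 0.824). The window lies on the first exons of AT3G05675, a BTB/POZ protein gene, whose own window held 145 and 160 reads in WT, 158 and 203 in nerd-1, with 258 and 518 in cpsf30-1. Its log2 fold change of 1.36 in cpsf30-1 against WT was not called (edgeR adjusted p = 0.0586). It was called by DESeq2 (adjusted p = 0.00719), without the filter on low counts (0.0011) and with a replicate block in which the numbers of cpsf30-1 were exchanged, added after seeing the data (0.037), so the call depends on the setting.

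HAKAI, the E3 ubiquitin ligase of the complex, had few reads past its end. Its window, chr5:56053-56552, held 10 and 2 reads in WT, 15 and 5 in nerd-1, with 4 and 5 in cpsf30-1, and no genotype stood clear of both others. The interval of the log2 fold change in cpsf30-1 against WT ran from -2.93 to 1.99, so differences of this size were not detectable at this depth. The gene upstream, AT5G01150, ends just before HAKAI on the same strand, and its window lies by 462 bases on HAKAI exons. That window held 161 and 203 reads in WT, 262 and 204 in nerd-1, with 105 and 216 in cpsf30-1. The lower cpsf30-1 library was the lowest of the 6 and the other was not, and no comparison was called in the edgeR fit of all windows (log2 fold change -0.18 in cpsf30-1 against WT, 0.50 in nerd-1 against WT).

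FIO1, the U6 methyltransferase, had the largest spread between the mutants among the writers with over 100 reads. Its farthest window, chr2:9043652-9044151, held 283 and 312 reads in WT, 463 and 367 in nerd-1, with 177 and 248 in cpsf30-1. The level was 27.7 ± 6.05 CPM in WT, 41.7 ± 4.97 in nerd-1 and 20.1 ± 4.16 in cpsf30-1 (n = 2 each). The 3 genotypes did not overlap, with nerd-1 highest and cpsf30-1 lowest, although the lower WT library at 23.5 CPM was close to the higher cpsf30-1 library at 23.0. The log2 fold change in cpsf30-1 against nerd-1 was -1.05 (SE 0.272, 95% interval -1.69 to -0.42), with an edgeR adjusted p of 0.0515. Against WT it was -0.47 in cpsf30-1 (adjusted p = 0.317) and 0.59 in nerd-1 (adjusted p = 0.535).

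The 3 FIO1 transcripts have ends up to 126 bases apart and gave the same picture. The window of the first transcript held 226 and 250 reads in WT, 365 and 300 in nerd-1, with 153 and 203 in cpsf30-1. The farthest window held 1.16 to 1.27 times as many reads as that of the first transcript, 123 bases nearer, over the 6 libraries. In the edgeR fit of all windows the 3 windows had adjusted p of 0.0494, 0.0494 and 0.0488 in cpsf30-1 against nerd-1 and were called, though they share most of their reads. The same fit called none of them in cpsf30-1 against WT, where 11.2% of windows were called, or in nerd-1 against WT, where 0.0518% were.

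The FIO1 window lies on the first 453 bases of AT2G21080, which RefSeq describes as a Ras guanine nucleotide exchange factor. Another gene's window on the far end of AT2G21080 (413 exon bases, from the other strand) held 165 and 245 reads in WT, 194 and 199 in nerd-1, with 179 and 160 in cpsf30-1. Scaled for depth over all deposited windows this was 13.8 and 13.6 CPM in WT, 14.2 and 15.3 in nerd-1, with 12.2 and 10.9 in cpsf30-1. The order was that of the FIO1 window, nerd-1 highest and cpsf30-1 lowest without overlap. The log2 fold change in cpsf30-1 against nerd-1 was -0.35 (SE 0.195, edgeR adjusted p = 0.270), and no comparison was called. The window past AT2G21080 itself held 61 and 89 reads in WT, 90 and 97 in nerd-1, with 78 and 91 in cpsf30-1. Scaled for depth this was 6.80 ± 0.146 CPM in WT, 9.44 ± 0.922 in nerd-1 and 7.99 ± 0.633 in cpsf30-1, so WT was lowest and nerd-1 highest without overlap. None of the comparisons was called (edgeR adjusted p of 0.577, 0.554 and 0.545).

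ALKBH10B, a demethylase known for its part in the timing of flowering, had a window of few reads at chr4:1311039-1311538. It held 4 and 5 reads in WT, 2 and 7 in nerd-1, with 12 and 17 in cpsf30-1. Both cpsf30-1 libraries, at 1.16 and 1.58 CPM, were above the other 4, the highest of which was at 0.728. The log2 fold change was 1.71 in cpsf30-1 against WT (SE 0.735, 95% interval -0.01 to 3.44, edgeR adjusted p = 0.183) and 1.56 against nerd-1 (SE 0.734, adjusted p = 0.209). The next gene, AT4G02950, is of the ubiquitin family, and the window past it held 10 and 2 reads in cpsf30-1 and 0 to 2 in the others.

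ALKBH9C had 1 cpsf30-1 library far below the rest. Its windows held 23 and 48 reads in WT, 50 and 45 in nerd-1, with 37 and 9 in cpsf30-1, which is 3.58 and 0.835 CPM in the last. The log2 fold change in cpsf30-1 against WT was -0.51 (SE 0.622) and turned to 0.12 without cpsf30-1 replicate 2. In nerd-1 against WT it was 0.61 (SE 0.598), and none was called by edgeR. The 3 ALKBH9C transcripts had the same count in every library although the reference places the end of the second 174 bases from the others, so the end used in the counting may differ from that of the reference. The window lies on AT4G36080, described as a phosphatidylinositol kinase, and the window past that gene held 0 to 11 reads.

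ALKBH9A and ALKBH9B had 0 reads in every library and in all 7 of their transcript windows. The windows of both genes were free of other genes and were under the limit of 0.226 to 0.339 CPM per library, which is not a limit on the genes' expression. Windows at 0 in all 6 libraries made up 17.0% of all genes and 30.6% of the genes with a window free of others. Of the 3 m6A genes with such a window, HAKAI alone had reads. No window of another gene lay on ALKBH9A, ALKBH9B, ALKBH9C or ALKBH10B exons by 250 bases or more. Windows of nearer transcripts held up to 122 bases of the gene's own exons for ALKBH9B and 20 for ALKBH9A, at 0 reads. That of the second ALKBH9C transcript held 174 such bases by the reference. Nothing else here bears on the bodies of the eraser genes.

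Among other genes of the m6A pathway, the windows of 2 readers changed. ECT11, a YTH-domain protein of the ECT family, held 115 and 177 reads past its end in WT, 93 and 113 in nerd-1, with 608 and 507 in cpsf30-1. The 2 cpsf30-1 libraries were above all others, and the window rose in cpsf30-1 against WT by a log2 fold change of 2.01 (edgeR adjusted p = 0.00607) and against nerd-1 by 2.34 (adjusted p = 0.00425). Without nerd-1 replicate 1 or 2 the adjusted p against nerd-1 was 0.116 or 0.0871. The ECT11 window holds 309 exon bases of AT1G09800, a pseudouridine synthase gene, and 189 of a U2 spliceosomal RNA gene.

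ECT10, another YTH-domain protein of the family, held 594 and 890 reads past its end in WT, 597 and 544 in nerd-1, with 436 and 373 in cpsf30-1. Both cpsf30-1 libraries were lowest, and the window fell in cpsf30-1 against WT by a log2 fold change of -0.80 (edgeR adjusted p = 0.0349). It was not called without any 1 of the 6 libraries, with adjusted p from 0.0526 to 0.166, or with the replicate number as a block (adjusted p = 0.0966). The ECT10 window lies by 407 bases on exons of AT5G58200, the next gene on the same strand.

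Counted over the list, 1 of 9 tested reader windows out of 13 rose and 1 fell in cpsf30-1 against WT, where 7.41% of all windows rose and 2.85% fell. In cpsf30-1 against nerd-1, 1 of the 9 rose, beside 7.38% of all windows. In nerd-1 against WT none of the 9 was called, and the smallest unadjusted p values were those of ECT2, ECT8 and ECT5. The ECT2 window held 245 and 415 reads in WT, 126 and 144 in nerd-1, with 322 and 195 in cpsf30-1. Here nerd-1 was lowest, with a log2 fold change of -1.11 (SE 0.305, edgeR adjusted p = 0.347). Without the filter on low counts this ECT2 value was -1.12 and was called (adjusted p = 0.0284). The ECT8 and ECT5 windows had log2 fold changes of 0.49 and 1.16 in nerd-1 against WT. By the reference, the ECT2 window holds 311 exon bases of AT3G13450 on the same strand. The windows of the other ECT2 transcripts had the same counts, though placed with 151 bases on ECT2 exons and 223 on those of AT3G13450. As for ALKBH9C, the end used in the counting may differ from that of the reference. The ECT8 window lies by 500 bases on exons of ECT8 itself and of AT1G79280 on the other strand. That of ECT5 held 6 to 31 reads per library. Of 5 accessory writers and other methyltransferases 2 were tested, and of 3 other ALKBH genes 2, and none of these was called in any comparison.

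Windows of other genes that lay on exons of shoot and root markers held reads in every library. Their strand relative to the marker was not checked, so whether these are reads of the marker was not tested. The window on CAB1, a light-harvesting protein of the shoot, held 290122 to 539750 reads. That on CASP1, which builds the root's Casparian strip, held 900 to 1912. Levels were summed over the windows on exons of 2 of 5 shoot markers and scaled by library totals without TMM. They were 34633 to 39329 CPM in WT, 29716 to 31955 in nerd-1 and 41802 to 44665 in cpsf30-1, highest in cpsf30-1 without overlap. Nearly all of this sum is the window on CAB1, since that on the other marker, PSAF, held 279 to 1052 reads. Over the windows on 3 of 8 root markers, most of it that on CASP1, the summed level was 155 to 196 CPM in WT. It was 148 to 178 in nerd-1 and 166 to 237 in cpsf30-1, and the genotypes overlapped. Windows past the ends of the marker genes are not readings of tissue. Of these, 2 of 5 for the shoot, PSAF and GUN5, were called higher in cpsf30-1 than in WT and in nerd-1. That is beside 7.41% and 7.38% of all windows. The GUN5 window held 6 and 11 reads in WT, with 614 and 818 in cpsf30-1. The other 3 were not called, with log2 fold changes against WT from -0.42 for LHCB2.1 to 0.74 for CAB1. For the root, 0 of 5 tested windows were called in any comparison. The part of tissue make-up in the values above was not tested. The lowest count among the 5 windows on each side of a member was 0 to 5 in every library, so every member had a window at or near 0 close by.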

How the data were processed

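Per the labels, polyA RNA of whole seedlings was made into stranded libraries and sequenced in pairs. Tools named in the submitters' processing notes are TopHat2 2.0.7, Bowtie2 2.3.4, Cuffdiff and Cufflinks 2.2.1, with TAIR10 as build. No counting tool or strand setting is given in the sources used here. The authors deposited raw counts per transcript, without normalisation.

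Window positions were rebuilt from RefSeq TAIR10.1 and are approximate, and 560 transcripts had none. For each gene the transcript ending farthest downstream was kept. Counts were tested with edgeR 4.0.16 (R 4.3.3) by a two-sided quasi-likelihood F-test over all 6 libraries, with filterByExpr (14151 windows tested, 16958 not), TMM factors of 0.958 to 1.05 and Benjamini-Hochberg adjustment. The same fit was run on all deposited windows. Convergent pairs were tested with limma 3.58.1 on log2 ratios with a pseudocount of 0.5. DESeq2 1.42.0, other scalings, filters, a replicate block and left-out libraries were alternatives. Errors after ± are SD over 2 libraries. The scripts were tested on simulated data. The named genes are all 10 members, genes overlapping their windows or read on their exons, the 2 mutated genes, and other pathway genes that were called or else the 3 with the smallest p. The members and lists were chosen with earlier results of these data known.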

Additional observations from a re-analysis of the deposited data

How the results depend on the processing

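Beside the 1453, 6 and 1503 windows called in cpsf30-1 against WT, nerd-1 against WT and cpsf30-1 against nerd-1, no filter called 2807, 640 and 3021 and only the 4 libraries compared 893, 0 and 2287. An adjusted p under 0.01 left 345, 0 and 225. In nerd-1 against WT DESeq2 called 160, library totals without TMM 2 and all deposited windows 10. Leaving out 1 library gave 236 to 1159, 0 to 125 and 0 to 2304. The replicate block gave 592, 0 and 409 windows and 0 members. Same-numbered libraries did not deviate together (correlations of -0.311, -0.00493 and -0.00103). With 2 libraries per genotype, the correlation of unlike-numbered libraries is fixed at the opposite sign, 0.311 in cpsf30-1 against WT. Whether libraries were handled in pairs or batches therefore cannot be told from these values. With the numbers of cpsf30-1 exchanged, an alternative added after seeing the data, the block gave 17 windows in nerd-1 against WT and 2440 in cpsf30-1 against nerd-1.

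No member was called in the first 2 comparisons under any alternative run. In cpsf30-1 against nerd-1, MTA and FIO1 (2 members) were called by DESeq2, with only the 4 libraries compared, with the exchanged block and among all deposited windows. Library totals without TMM called 1 (MTA), and no filter and the stricter filter 1 each (FIO1). Leaving out 1 library called 0 to 2, and 0 whenever it was a nerd-1 or cpsf30-1 library. The values of MTA and FIO1 kept their sign throughout. The cause was not tested.

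Signs turned for windows of few reads or small differences. Under the stricter filter MTB in cpsf30-1 against nerd-1 was 0.0306. Leaving out 1 library moved log2 values in cpsf30-1 against WT to between -0.28 and 0.49 for FIP37, -0.32 and 0.0035 for VIR, -1.43 and 1.43 for HAKAI, -1.91 and 0.14 for ALKBH9C, -0.62 and 0.37 for AT4G09970, -0.79 and 0.26 for AT5G01150, -0.32 and 0.0920 for CDKB1;1, and -0.72 and 0.0247 for ECT2. In nerd-1 against WT they were -0.35 to 0.36 for FIP37, -0.23 to 2.64 for HAKAI and -1.04 to 0.81 for ALKBH10B. In cpsf30-1 against nerd-1 they were -0.23 to 0.11 for MTB and -0.19 to 0.34 for AT4G10750. The log2 ratio of the MTB pair in nerd-1 against WT ran from -0.60 to 0.29. With 2 libraries per genotype and under 20 reads, the HAKAI and ALKBH10B windows limit what can be seen.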
